A study of Homo sapiens with 6 samples.

Results

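The genes described here are 10 genes of the YAP-TEAD arm of the Hippo pathway, out of 28563 genes listed in the RNA-seq dataset. They were taken by name: the coactivators YAP1 and WWTR1 (the gene of TAZ), the DNA-binding partners TEAD1 and TEAD4, the target genes CCN1, CCN2 and ANKRD1, and the genes AMOTL2, LATS2 and AJUBA, whose proteins act on the pathway. The samples were labelled as HepG2 cells, an established line that grew from a human liver tumor, and were treated for 24 h with polydatin (PD) or with the vehicle DMSO, and each group had 3 plates, with 1 library per plate. PD is a glucoside of resveratrol, and the sample labels give its dose as 336 µM, which is not the same as the somewhat lower dose in the study's methods. Both groups were the same line, no genetic change is given for either, and only 1 time point was measured. Below, ± gives the SD over the 3 libraries of a group.

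In the Hippo pathway, a kinase cascade that ends in LATS1 and LATS2 phosphorylates YAP1 and TAZ and keeps them in the cytoplasm. When the cascade is off, both proteins enter the nucleus, bind TEAD factors and turn on target genes. CCN1 and CCN2, which encode secreted matricellular proteins, and ANKRD1, an ankyrin repeat protein, are the targets most often used as a readout, and in liver the pathway is known for its control of organ size and of tumor growth. AMOTL2 and LATS2 are also YAP-TEAD targets, so that inhibitors of YAP1 and TAZ are made by their own output. RNA levels do not show where YAP1 and TAZ proteins were in the cell or how they were phosphorylated.

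The values are FPKM, that is, fragments counted on a gene, scaled by the length of the gene and by the total of the library. The whole fragments behind them could be worked back, and the library totals were between 16308476 and 18071632 fragments. In the members except ANKRD1, each value rested on 726 to 13693 fragments, whereas ANKRD1 rested on only 9 to 45 fragments. As a check of the cell type, 20 hepatocyte genes were looked up, but only 10 of them had values here. Of these 10, only CPS1 and RBP4 reached 1 FPKM in any library. HNF4A did not exceed 0.106 FPKM and SERPINA1 0.0452 FPKM. ALB, AFP, APOB and TTR were among the listed genes that were not analysed here. The summed level of this list was 222 to 229 FPKM in DMSO and 107 to 113 FPKM in PD, nearly all of it from CPS1. RBP4, at a much lower level, went the other way, from 0.391 ± 0.0803 FPKM in DMSO to 1.30 ± 0.376 FPKM in PD (limma adjusted p = 0.0027). RBP4 reached the average of 0.5 FPKM needed for a test only through PD, and its DMSO values rested on 8 to 12 fragments. HepG2 cells are known to express HNF4A, SERPINA1 and APOA1, which did not exceed 0.172 FPKM here, so these values go against the label. What the cells were could not be settled from the data, and HepG2 is used below only as the name in the labels. The part of these genes in the results below was not tested.

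PD treatment lowered 7 of the 10 genes and raised 1 of them past an adjusted p of 0.05 by limma on log2(FPKM + 1), where p was adjusted over the 14400 genes whose average reached 0.5 FPKM. CCN1, AJUBA, AMOTL2, TEAD1, ANKRD1, LATS2 and YAP1 were lower, TEAD4 was slightly higher, and WWTR1 and CCN2 did not pass the test. Over all tested genes, 26.2% were lower and 31.9% were higher at the same threshold. On the log2(FPKM + 1) scale, only CCN1 and AJUBA also passed 2-fold. ANKRD1 fell by 2.34-fold in mean FPKM and missed it only on this scale. The 2-fold threshold was one that 1.57% of all tested genes passed as lower and 2.04% as higher. In the 7 lower genes and in TEAD4 the PD libraries did not overlap with the DMSO libraries, which held for 29.9% of all tested genes as lower and 35.6% as higher. In bulk RNA, fewer cells that express a gene and less RNA per cell cannot be told apart. The median log2 fold change of the members was -0.49, against 0.01 for all tested genes. As the members were chosen with earlier results of these data known, these contrasts with all genes only describe them. All 10 members passed the FPKM minimum, but ANKRD1 did so only through its level in DMSO.

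**Figure D1:**
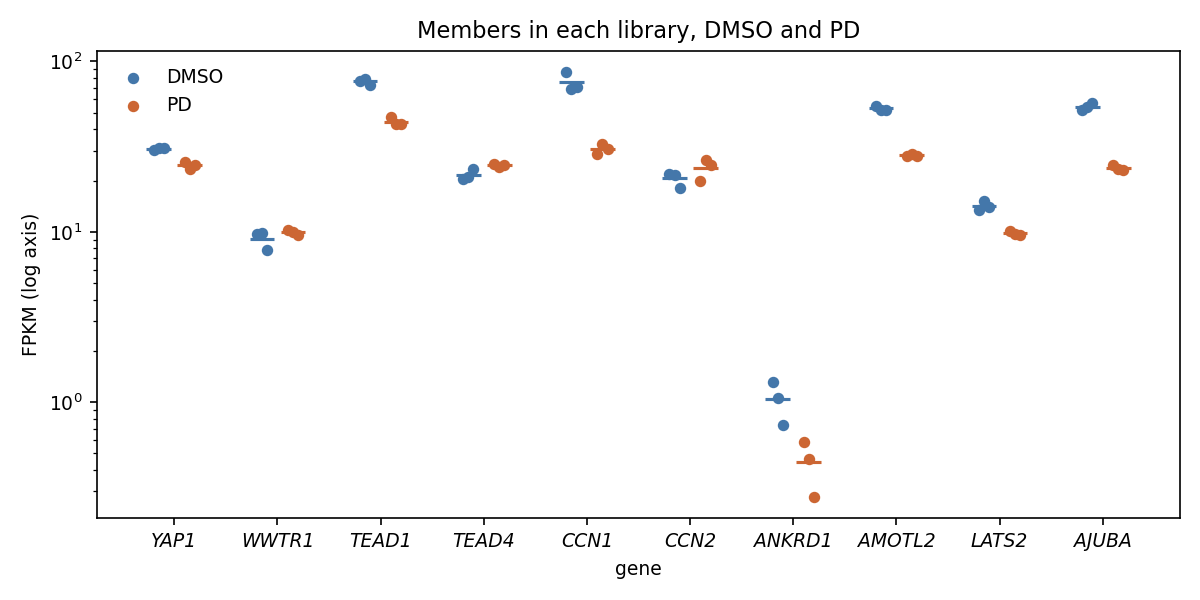
FPKM of the 10 members (log axis) in each of the 3 DMSO libraries (blue) and 3 PD libraries (orange), with a line at each group's mean. The groups lie apart for every gene but WWTR1 and CCN2, and ANKRD1 lies far below the others.

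To show where TEAD factors could bind, the promoters of members in the RefSeq table for GRCh38.p14 were searched over the 250 bases before each start site for the TEAD motif CATTCC on both strands. On the strand of the gene a match on the other strand reads GGAATG. CCN1, TEAD1 and TEAD4 had no entry. Windows were found for 7 of the members, 10 windows in all because some genes have several starts, and 5 windows of 5 genes held a match, where 11.9% of all 35116 windows did. CCN2 had 3 matches, the first bases of which lie 169, 104 and 95 bases before the start, and ANKRD1 had 2, at 220 and 128 bases. YAP1 had 1 match at 162 bases. The windows of WWTR1 and LATS2 had none. The AP-1 motif TGANTCA was searched in the same way and was found in 1 of the 10 windows, that of ANKRD1 at 195 bases, and in 6.57% of all windows. The matches and the motif TGANTCA did not overlap. The 3 promoters below are printed 5′ to 3′ on the strand of the gene, with the TEAD motif in capitals, because they set the target that did not pass the test, CCN2, beside a target that fell, ANKRD1, and beside the coactivator. CCN2 is at chr6:131951373-131951622 (minus strand), ANKRD1 at chr10:90921088-90921337 (minus strand) and YAP1 at chr11:102110197-102110446 (plus strand).
CCN2: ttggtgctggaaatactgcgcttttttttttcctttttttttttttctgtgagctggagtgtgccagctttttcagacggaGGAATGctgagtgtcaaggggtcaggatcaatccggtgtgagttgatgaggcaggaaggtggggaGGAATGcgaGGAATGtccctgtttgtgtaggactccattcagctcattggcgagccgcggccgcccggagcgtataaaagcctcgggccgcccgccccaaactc
ANKRD1: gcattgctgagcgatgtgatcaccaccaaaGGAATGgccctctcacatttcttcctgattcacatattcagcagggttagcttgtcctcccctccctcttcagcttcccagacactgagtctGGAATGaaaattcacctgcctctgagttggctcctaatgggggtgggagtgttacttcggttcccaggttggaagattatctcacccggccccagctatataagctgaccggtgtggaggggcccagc
YAP1: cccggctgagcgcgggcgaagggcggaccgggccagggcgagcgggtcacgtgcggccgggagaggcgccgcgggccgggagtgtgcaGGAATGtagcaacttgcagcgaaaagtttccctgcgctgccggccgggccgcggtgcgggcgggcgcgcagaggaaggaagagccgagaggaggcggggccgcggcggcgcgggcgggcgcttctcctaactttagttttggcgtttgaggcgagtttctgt

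AMOTL2 and AJUBA, which both fell, had a match before an inner start site only, and the 30 bases around each are shown for comparison with the sites of CCN2. The AMOTL2 match is 69 bases and the AJUBA match 59 bases before that start, at chr3:134374499-134374528 and chr14:22976884-22976913, both on the minus strand.
AMOTL2: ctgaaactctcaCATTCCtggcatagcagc
AJUBA: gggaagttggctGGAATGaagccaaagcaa
Of the genes with a match, YAP1, ANKRD1, AMOTL2 and AJUBA fell, and CCN2 did not pass the test. Of those with none, LATS2 fell and WWTR1 did not pass. CCN1, TEAD1 and TEAD4 had no window, and the part of the motif in these changes was not tested. A match in these letters does not show that a TEAD factor was bound, and most TEAD sites are known to lie in distal enhancers, which were not searched.

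YAP1, on chromosome 11 from 102110447 to 102233424 (GRCh38), encodes a coactivator that does not bind DNA itself. Its level was 30.2, 31.0 and 31.2 FPKM in DMSO replicates 1, 2 and 3, and 25.7, 23.4 and 24.6 FPKM in PD replicates 1, 2 and 3. Every PD library was below every DMSO library, and the log2 fold change was -0.32 (SE 0.04, limma adjusted p = 0.0005). WWTR1, on chromosome 3 from 149517235 to 149736714, encodes TAZ, the paralog that shares the TEAD partners. It had 9.67, 9.82 and 7.77 FPKM in DMSO and 10.2, 10.0 and 9.58 FPKM in PD. These groups overlapped, and the interval of the log2 fold change ran from -0.07 to 0.32 (adjusted p = 0.24). WWTR1 made up 22.7% ± 2.45 of the summed FPKM of the pair in DMSO and 28.8% ± 1.01 in PD and was higher in all 3 PD libraries. In an exact permutation test over the libraries, two-sided, the p was 0.10, the smallest that 3 against 3 can give. Exons of both genes overlap an annotated gene on the opposite strand, and the strand setting of the counting is not given in the sources used here.

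The TEAD factors are the DNA-binding part of the complex and read the motif CATTCC. TEAD1, on chromosome 11 from 12674421 to 12944737, was the TEAD gene with the highest level, with 77.1, 78.8 and 73.1 FPKM in DMSO and 47.2, 42.7 and 43.1 FPKM in PD. The PD libraries were all lower, and the log2 fold change was -0.77 (SE 0.05, limma adjusted p = 1.6e-05). TEAD4, on chromosome 12 from 2959330 to 3040676, had 20.4, 20.9 and 23.2 FPKM in DMSO and 24.9, 24.0 and 24.8 FPKM in PD. Its 3 PD libraries lay just above the highest DMSO library, with a log2 fold change of 0.18 (SE 0.05, adjusted p = 0.018). This call was not stable. Without DMSO replicate 1 the log2 fold change was 0.15 (adjusted p of 0.058), without DMSO replicate 2 it was 0.17 (0.057), without PD replicate 1 it was 0.18 (0.055) and without PD replicate 3 it was 0.18 (0.058). Scaling by the upper quartile gave 0.14 with an adjusted p of 0.059.

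The other TEAD genes were not members but complete the family. TEAD3 had 12.8 ± 0.835 FPKM in DMSO and 14.8 ± 1.04 FPKM in PD, and its log2 fold change was 0.20 (adjusted p = 0.033). TEAD3 lost its call without DMSO replicate 1 (0.15, adjusted p of 0.096), without DMSO replicate 3 (0.21, 0.054), without PD replicate 1 (0.20, 0.079) and without PD replicate 3 (0.15, 0.11), and also with both other scalings, with no FPKM filter and with the replicate block. TEAD2 had 5.46 ± 0.379 and 6.22 ± 0.349 FPKM, and its log2 fold change of 0.16 did not pass the test (adjusted p of 0.061). The summed FPKM of the 4 TEAD genes was 115 to 118 in DMSO and 86.4 to 93.0 in PD. TEAD1 made up 65.7% ± 1.91 of this sum in DMSO and 49.3% ± 1.53 in PD, 16.5 percentage points less. The share of TEAD4 was 18.5% ± 1.42 in DMSO and 27.3% ± 0.520 in PD. Both shares were apart in all libraries, with a p of 0.10 in the exact permutation test. When fragments were used in place of FPKM, the difference was -9.07 points for TEAD1 and 4.20 points for TEAD4. TEAD1 has the longest counted length of the family. Exons of TEAD2 overlap CD37 on the opposite strand.

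CCN1 had the largest fall of the members. It lies on chromosome 1 from 85580761 to 85584589 and encodes CYR61, a secreted matricellular protein that binds integrins. Its level was 86.8, 69.1 and 70.6 FPKM in DMSO and 28.7, 32.8 and 30.5 FPKM in PD. DMSO replicate 1 stood above the other DMSO libraries, but the lowest DMSO library was still more than 2-fold above the highest PD library. The log2 fold change was -1.27 (SE 0.09, limma adjusted p = 2.9e-05), and without DMSO replicate 1 it was -1.16. CCN2, on chromosome 6 from 131948176 to 131951372, encodes CTGF, the nearest relative of CCN1 and also a target of YAP-TEAD. Its level was 21.9, 21.7 and 18.1 FPKM in DMSO and 19.97, 26.5 and 24.7 FPKM in PD. PD replicate 1 lay within the DMSO libraries and the other PD libraries lay above them. The log2 fold change of CCN2 was 0.19 with an interval from -0.07 to 0.45 (adjusted p of 0.18). The lower end of this interval was far from the change of CCN1. Without PD replicate 1, CCN2 was 0.31 higher with an adjusted p of 0.026. An exon of LINC01013 overlaps CCN2 on the opposite strand.

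The balance of CCN1 and CCN2 was also compared within each library. CCN1 made up 78.5% ± 2.06 of the summed FPKM of the pair in DMSO and 56.5% ± 2.13 in PD, a difference of -22.0 percentage points. The lowest DMSO library had 76.1% and the highest PD library 59.0%. The exact permutation p was 0.10, and 0.109 after adjustment over the 12 paralog shares compared, which was the same for every share but that of AMOT. ANKRD1, on chromosome 10 from 90912096 to 90921087, encodes an ankyrin repeat protein best known from heart muscle. It had 1.32, 1.06 and 0.738 FPKM in DMSO, from 45, 35 and 25 fragments, and 0.587, 0.461 and 0.279 FPKM in PD, from 21, 16 and 9 fragments. The groups did not overlap, and the log2 fold change was -0.49 (SE 0.14, limma adjusted p = 0.019). The pseudocount of 1 FPKM understates a change at this level, and the same gene fell by 1.21 on the log2 scale when limma voom was run on the fragments and by 1.08 with a pseudocount of 0.1. The call was lost without DMSO replicate 1 (-0.40, adjusted p of 0.062), without DMSO replicate 2 (-0.48, 0.052) and without PD replicate 3 (-0.41, 0.060).

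**Figure D2:**
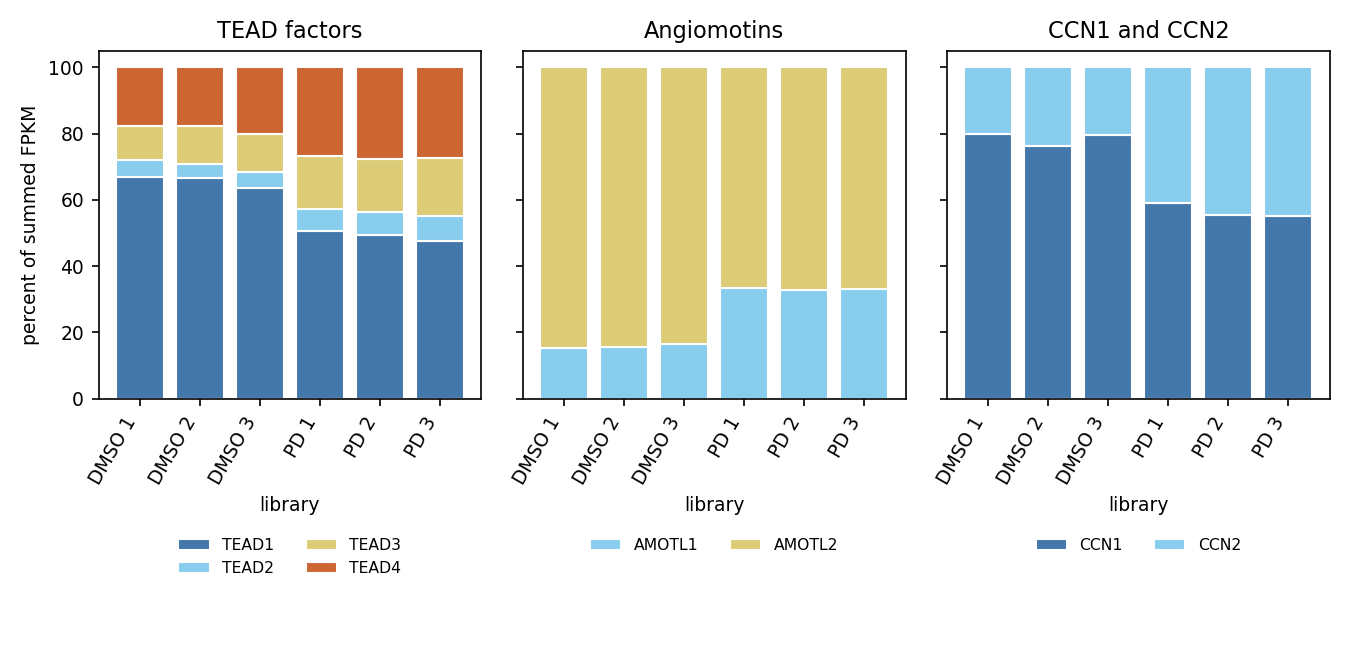
Percent of the summed FPKM of each paralog family held by each gene, in every library, for the TEAD factors, the angiomotins and the pair CCN1 and CCN2. TEAD1, AMOTL2 and CCN1 took a smaller share of their family in all 3 PD libraries than in any DMSO library. AMOT, listed at or near 0, is not drawn.

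AMOTL2, LATS2 and AJUBA encode proteins that act on the pathway. AMOTL2, on chromosome 3 from 134355347 to 134375479, encodes an angiomotin, a junction protein that can hold YAP1 outside the nucleus. It had 54.9, 52.2 and 52.2 FPKM in DMSO and 27.9, 28.6 and 27.7 FPKM in PD. The 3 values of each group were close to each other and far from those of the other group, with a log2 fold change of -0.89 (SE 0.03, adjusted p = 3.2e-06). The paralog AMOTL1 went the other way, from 9.94 ± 0.349 FPKM in DMSO to 13.9 ± 0.0916 FPKM in PD, with a log2 fold change of 0.44 (adjusted p = 8.4e-05). AMOT was listed at 0 in all DMSO libraries and did not exceed 0.00651 FPKM in PD. AMOTL1 therefore held 15.8% ± 0.694 of the angiomotin FPKM in DMSO and 33.0% ± 0.305 in PD, with a p of 0.10 in the exact permutation test. By fragments, this share differed by 21.4 points in place of 17.3.

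LATS2, on chromosome 13 from 20973036 to 21061586, encodes a kinase that phosphorylates YAP1 and TAZ. Its level was 13.4, 15.1 and 14.0 FPKM in DMSO and 10.1, 9.68 and 9.62 FPKM in PD. All PD libraries were lower, with a log2 fold change of -0.49 (SE 0.05, adjusted p = 0.00018). Its paralog LATS1 had 3.83 ± 0.170 FPKM in DMSO and 4.17 ± 0.335 FPKM in PD, and did not pass the test (interval of the log2 fold change from -0.06 to 0.25). LATS2 made up 78.7% ± 1.72 of the pair in DMSO and 70.2% ± 1.22 in PD.

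AJUBA, on chromosome 14 from 22971177 to 22982551, encodes a LIM domain protein that binds LATS kinases and holds them inactive at junctions. It had 51.9, 54.1 and 56.8 FPKM in DMSO and 24.6, 23.5 and 23.0 FPKM in PD. The groups were far apart, and the log2 fold change was -1.16 (SE 0.04, limma adjusted p = 3.2e-06). LIMD1, a relative with the same role, had 8.25 ± 0.220 FPKM in DMSO and 8.17 ± 0.248 FPKM in PD, with an interval of the log2 fold change from -0.12 to 0.09. WTIP, the remaining relative, rose from 0.387 ± 0.0662 to 0.812 ± 0.0360 FPKM, with a log2 fold change of 0.39 (adjusted p = 0.0096), and passed the FPKM minimum only through PD. With a pseudocount of 0.1 the change of WTIP was 0.91 and with voom 1.07. AJUBA made up 86.3% ± 0.168 of the summed FPKM of these 3 genes in DMSO and 72.5% ± 0.301 in PD. By fragments the difference was -19.4 points in place of -13.8. One annotated gene overlaps exons of AJUBA on the same strand, and a pseudogene, RPL39P5, overlaps those of AMOTL2.

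Compared by FPKM, which is a level per gene length, TEAD1 and CCN1 were the most abundant members in DMSO, and their libraries overlapped. AJUBA and AMOTL2 followed and also overlapped with each other, then YAP1, then TEAD4 and CCN2, which overlapped, and then LATS2, WWTR1 and ANKRD1, each apart from its neighbors. In PD, TEAD1 stood alone at the top with a mean of 44.3 FPKM, followed by CCN1 with 30.7 and AMOTL2 with 28.1 FPKM. YAP1, TEAD4, CCN2 and AJUBA then lay together, with means between 23.7 and 24.6 FPKM, and each overlapped with the next. The summed FPKM of all members was 348 to 368 in DMSO and 218 to 222 in PD.

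The members were then set beside a list of 22 YAP/TAZ target genes that holds CCN1, CCN2, ANKRD1, AMOTL2, LATS2 and 17 others. Of the 17 others, 16 were tested, and 10 were lower, 3 were higher and 3 did not pass the adjusted p, where 31.9% of all tested genes were higher and 26.2% lower. The median log2 fold change of the 16 was -0.26. GADD45A lost its call with no FPKM filter, without PD replicate 2 (0.24, adjusted p = 0.053) and without PD replicate 3 (0.28, 0.051), and PTPN14 without DMSO replicate 2 (-0.13, 0.055) and without PD replicate 3 (-0.13, 0.062). AXL passed the test without PD replicate 2 (-0.15, 0.029) and with both other scalings, and CCDC80 passed it with voom (0.38, 0.005). FJX1, a relative of the fly gene four-jointed, fell from 16.9 ± 1.25 to 8.06 ± 0.226 FPKM (log2 fold change -0.98), and CRIM1, a membrane protein that binds BMPs, fell from 73.3 ± 1.75 to 41.4 ± 0.405 FPKM (-0.81). FOXF2 (-0.77), NUAK2 (-0.71), MYOF (-0.50), TGFB2 (-0.46), DOCK5 (-0.35), ASAP1 (-0.28), ARHGEF17 (-0.23) and PTPN14 (-0.15) fell by less. NT5E, the gene of the ectonucleotidase CD73, rose by 1.01 on the log2 scale, with 3.997, 3.82 and 4.26 FPKM in DMSO and 9.14, 8.28 and 10.0 FPKM in PD. F3, the gene of tissue factor, rose by 0.57 and GADD45A, a stress gene, by 0.30. AXL (-0.11, adjusted p of 0.089), IGFBP3 (-0.07, 0.42) and CCDC80 (0.18, 0.11) did not pass the test, and RBMS3 was under the FPKM minimum. The part of YAP-TEAD in the levels of these genes was not tested.

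**Figure D3:**
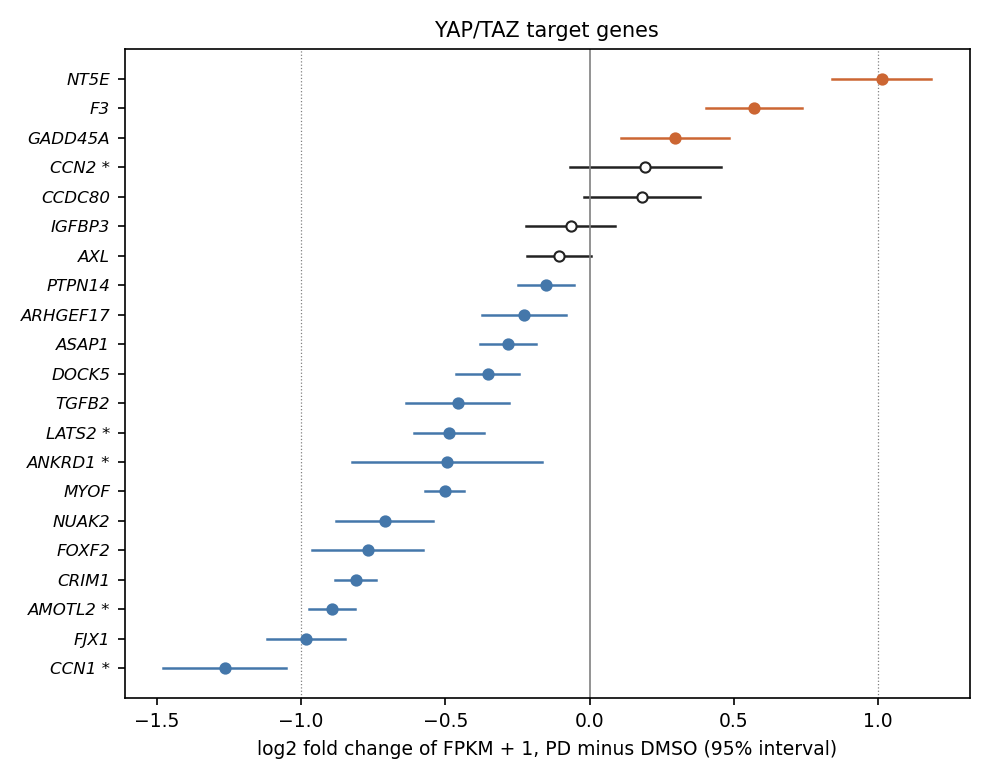
Log2 fold change of FPKM + 1 (PD minus DMSO) with its 95% interval for the tested genes of the YAP/TAZ target list, with members marked by an asterisk. Blue points were lower and orange points higher at an adjusted p of at most 0.05, open points did not pass, and dotted lines mark 2-fold. Most points lie left of 0, with CCN1 at -1.27 and NT5E at 1.01 as the ends of the range.

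In the CCN family of CCN1 and CCN2, CCN5 fell and CCN3 rose. CCN5, a family member that lacks the C-terminal domain, fell from 47.2, 43.9 and 46.7 FPKM in DMSO to 14.9, 15.6 and 16.0 FPKM in PD (log2 fold change -1.51). CCN3 rose from 6.39, 6.52 and 6.43 FPKM to 23.7, 22.6 and 21.6 FPKM (log2 fold change 1.67, limma adjusted p = 1.6e-06). The summed FPKM of the family was 141 to 162 in DMSO and 87.4 to 97.5 in PD. CCN6 did not exceed 0.0723 FPKM in any library, and CCN4 was not analysed here. Among the relatives of ANKRD1, ANKRD2 had 0.780 ± 0.237 FPKM in DMSO and 0.427 ± 0.338 FPKM in PD. It did not pass the test (adjusted p of 0.17), except without PD replicate 2 (-0.51, 0.045) and with voom (-1.16, 0.036). ANKRD2 passed the FPKM minimum only through DMSO and rested on 3 to 25 fragments, so these calls are uncertain. ANKRD23 was under the FPKM minimum. Exons of CCN3 overlap a gene on the opposite strand.

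Upstream of the members, most genes of the core kinase cassette did not pass the test. Of its 7 genes, LATS2 fell and STK4, the gene of the kinase MST1, rose by 0.16 on the log2 scale (adjusted p of 0.039). STK3, SAV1, MOB1A, MOB1B and LATS1 did not pass the test. At an adjusted p of 0.05, 31.9% of all tested genes were higher and 26.2% lower. The STK4 call was lost without DMSO replicate 2 (adjusted p of 0.050), without DMSO replicate 3 (0.11 on the log2 scale, 0.088), without PD replicate 1 (0.14, 0.11) and without PD replicate 3 (0.15, 0.11), and with the other scalings, no FPKM filter and the replicate block. The MAP4K and TAO kinases, which can activate LATS directly or through STK3 and STK4, had 4 of 8 tested genes higher and 3 lower, where 31.9% of all tested genes were higher and 26.2% lower. MAP4K4 rose by 0.65 and TAOK3 by 0.52, and TAOK1 fell by 0.59 and MAP4K5 by 0.41 on the log2 scale. Among 16 subunits of STRIPAK, the phosphatase complex that inactivates STK3 and STK4, 6 were higher and 7 were lower, against the same 31.9% and 26.2% of all tested genes. STRIP2 rose from 2.17, 1.98 and 2.11 FPKM in DMSO to 6.74, 6.74 and 6.75 FPKM in PD (log2 fold change 1.33). FGFR1OP2 rose by 0.28, PDCD10 fell by 0.56 and STRN3 fell by 0.46.

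Among regulators at junctions and the membrane, 6 of 16 tested genes were higher and 8 were lower, where 31.9% of all tested genes were higher and 26.2% lower. WWC1, the gene of KIBRA, which activates LATS kinases, fell from 23.0, 23.4 and 24.5 FPKM in DMSO to 11.1, 11.8 and 11.8 FPKM in PD (log2 fold change -0.97, limma adjusted p = 5.3e-06). NF2, the gene of the tumor suppressor merlin, rose from 4.53 ± 0.0562 to 7.27 ± 0.133 FPKM (log2 fold change 0.58). RASSF5 rose by 0.59 at a low level, from 0.580 ± 0.119 to 1.38 ± 0.283 FPKM. As for ANKRD1, the pseudocount understates this change, and RASSF5 rose by 1.12 with a pseudocount of 0.1 and by 1.24 with voom on the log2 scale. The VGLL cofactors compete for TEAD. VGLL4 had 4.79 ± 0.551 FPKM in DMSO and 5.03 ± 0.312 FPKM in PD and did not pass the test (adjusted p of 0.55), VGLL3 did not exceed 0.444 FPKM, and VGLL1 and VGLL2 were not analysed here. Across all pathway lists without the members, 69 of 84 genes were tested, and 24 were higher and 27 were lower, with a median log2 fold change of 0.02, where 31.9% of all tested genes were higher and 26.2% lower. On the log2(FPKM + 1) scale, 3 were upregulated by 2-fold (STRIP2, CCN3 and NT5E) and 1 was downregulated (CCN5). Of all tested genes, 2.04% and 1.57% were. FJX1 and WWC1 fell, and RASSF5 and WTIP rose, by more than 2-fold in mean FPKM but not on this scale.

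**Figure D4:**
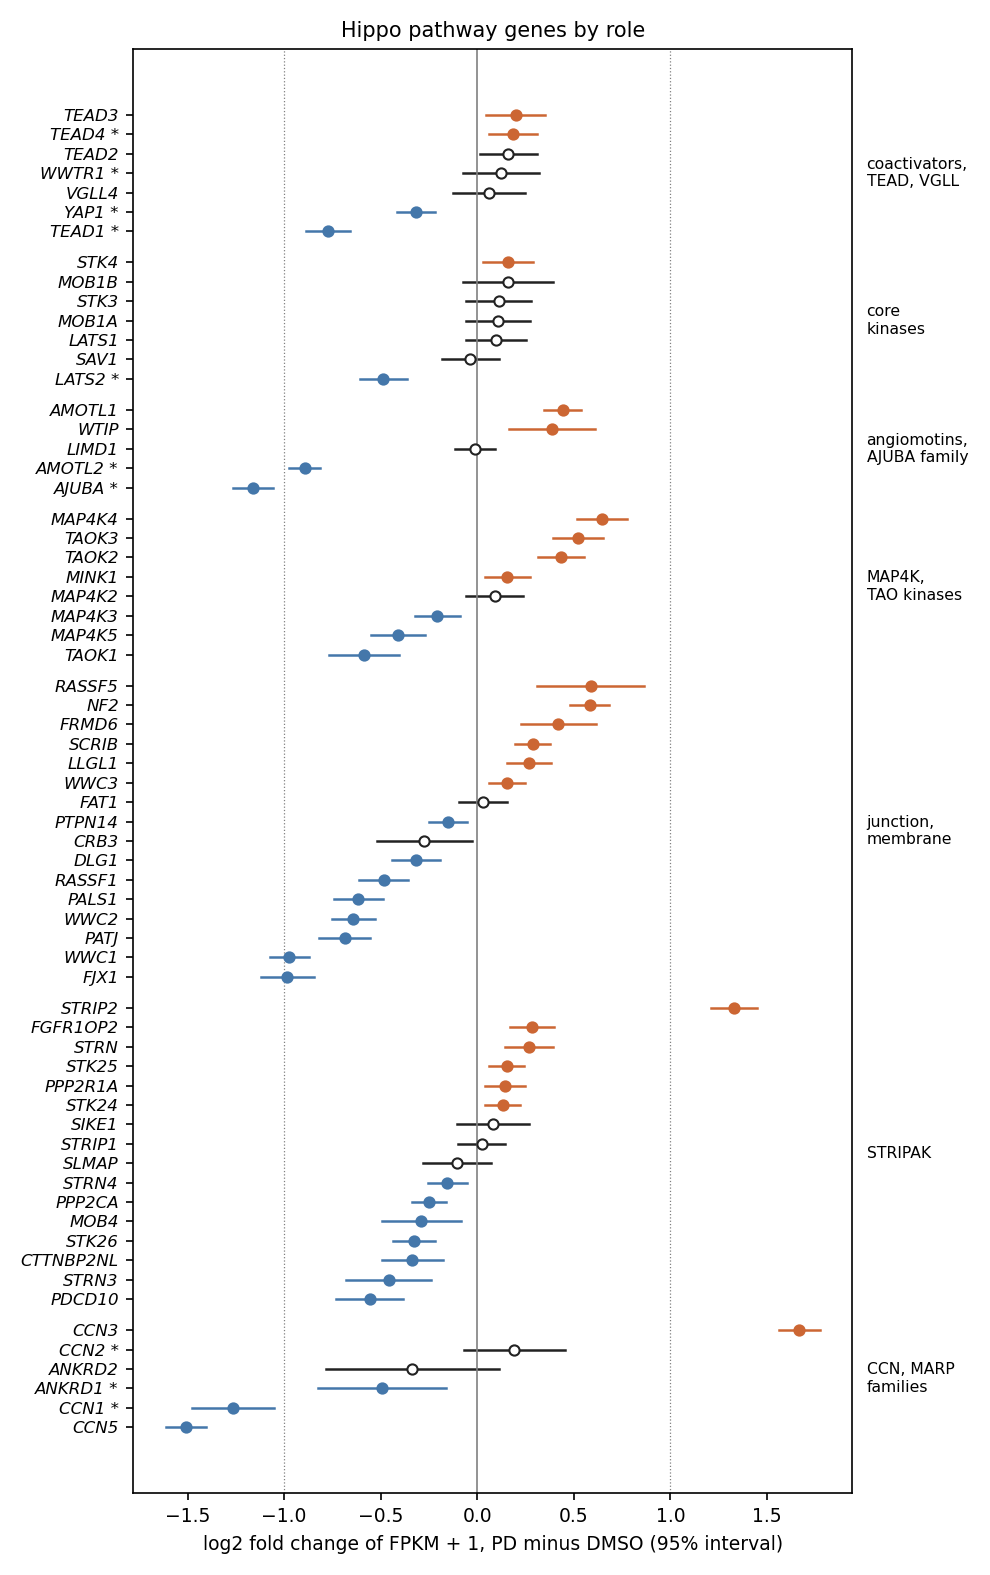
Log2 fold change of FPKM + 1 (PD minus DMSO) with its 95% interval for the tested genes of the Hippo pathway lists, grouped by role, with members marked by an asterisk. Blue points were lower and orange points higher at an adjusted p of at most 0.05, open points did not pass, and dotted lines mark 2-fold. Most core kinases lie near 0, and CCN3 and CCN5 are the ends of the range.

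The direction of every member was the same in all settings tried, whereas the calls of TEAD4, ANKRD1 and CCN2 depended on the setting as described above. Over the settings, the log2 fold change ranged from -1.32 to -1.16 for CCN1, from -1.21 to -1.13 for AJUBA, from -0.94 to -0.87 for AMOTL2 and from -0.82 to -0.75 for TEAD1. For ANKRD1 it ranged from -1.21 to -0.40, with the largest falls in the settings that do not add a full FPKM. LATS2 ranged from -0.53 to -0.44, YAP1 from -0.36 to -0.28, TEAD4 from 0.14 to 0.24, WWTR1 from 0.03 to 0.18 and CCN2 from 0.11 to 0.31.

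**Figure D5:**
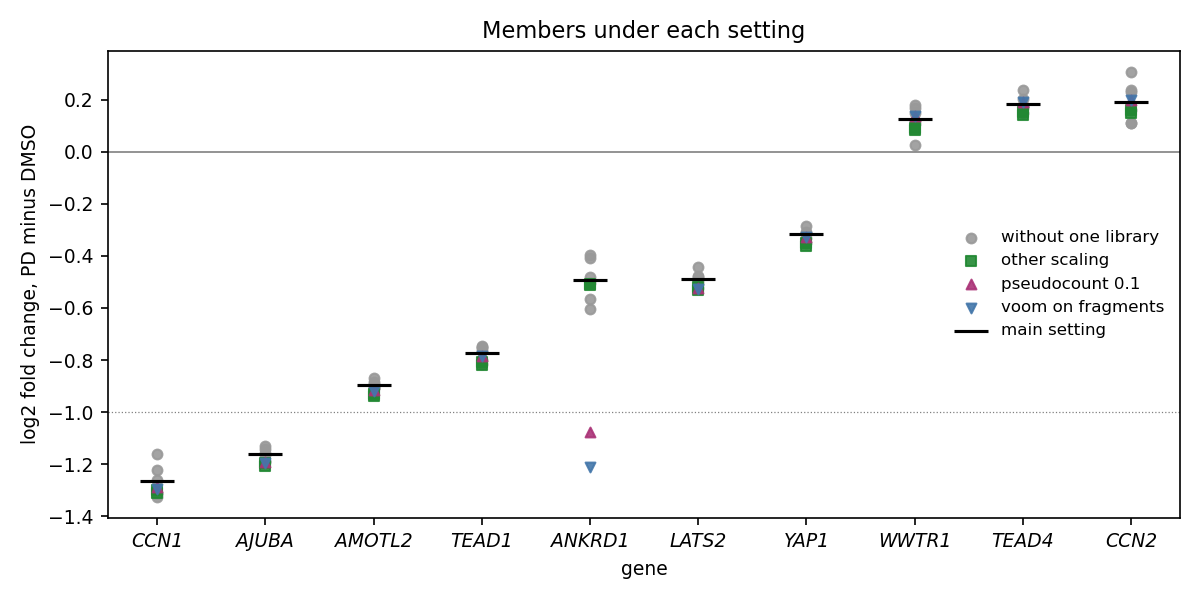
Log2 fold change (PD minus DMSO) of each member under the main setting (black line) and under the alternatives, with 1 point per setting. The replicate block and no FPKM filter give the main value and are not drawn. The dotted line marks a 2-fold fall. ANKRD1 spreads from -1.21 to -0.40, and the other members stay close to their main value.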

How the data were processed

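Poly(A) RNA from 6 plates was sequenced, 3 per treatment. The authors used HISAT2 for alignment to hg38 and HTSeq 0.6.0 for counts per gene, and deposited FPKM made from these counts, the only values used here. All 6 value columns were assigned to samples by name. Gene symbols and positions came from GENCODE release 44, of the same build. The count test of the study was not repeated. As the deposited unit is FPKM, the main test is on the log scale, and limma voom on fragments worked back from FPKM is an alternative. For the main test, log2(FPKM + 1) of the 14400 genes whose average reached 0.5 FPKM was fitted with limma 3.58.1 (R 4.3.3; eBayes with a trend), with no covariate. Benjamini-Hochberg adjustment covered all of these genes. Genes changed by 2-fold also passed an adjusted p of 0.05.

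Whole fragments were worked back for 28554 of 28563 genes, for 13739 of them with the exon length in GENCODE (within 0.02 fragments) and for the rest from a common step in the values (within 0.002 fragments). Per length, FPKM depend on the authors' gene models. Paralog shares were compared by exact permutation in scipy 1.17.1, two-sided. The pairs of libraries within a group differed by 2.22 to 3.55 in chi-square per gene, where sampling noise gives about 1, so none was counted as a duplicate. Growing cells were replated and the plates were divided at random between the groups, and no separate cultures are described, so the p-values measure only the spread between plates, which may be technical. On simulated fragments for the same comparison, limma called 96 of 100 genes changed by 2.5-fold and all 100 changed by 4-fold. It also called 2 unchanged genes among 14400 tested. The changed genes were drawn only from those well above the FPKM minimum, and every gene was given the same dispersion of 0.003. These counts therefore do not cover genes at a low level, such as ANKRD1, WTIP and RASSF5, or genes with a wider spread.

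The members, the lists and the settings were chosen with earlier results of these data known. The genes named are the members, their paralogs, list genes changed by 2-fold and, in each list of at least 5 genes, the 2 largest rises and falls. The other target and core cassette genes and the cell type markers were named after their values were seen. Alternatives were a pseudocount of 0.1 FPKM, no filter, upper quartile and median-of-ratios scaling, the replicate number as a block, leaving out each library, and limma voom on genes with at least 10 fragments in 3 libraries.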

Additional observations from a re-analysis of the deposited data

How the results depend on the processing

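With a pseudocount of 0.1 FPKM, 1248 genes changed by 2-fold, and 1733 did with voom on fragments, against 520 in the main setting. These settings called 7 and 9 of the pathway genes other than members, against 4, and both called 3 members, against 2, by adding ANKRD1. Upper quartile scaling left 0 members higher, against 1 (TEAD4), and leaving out single libraries gave 0 to 1. Without PD replicate 1 the member called higher by limma was CCN2 (adjusted p of 0.026), as TEAD4 lost its call (0.055). By fragments in place of FPKM the shares of TEAD1 (-9.07 points), TEAD4 (4.20), LATS2 (-10.1), AMOTL1 (21.4), AMOTL2 (-21.4) and AJUBA (-19.4) kept their direction. LIMD1, which did not pass the test, ranged from -0.035 (without PD replicate 1) to 0.0036 (without DMSO replicate 3) on the log2 scale when single libraries were left out, SAV1 from -0.081 to 0.028 and COL1A1 from -0.064 to 0.051. None of these passed the test, nor did COL1A1 with a pseudocount of 0.1 (0.00012) or KRT18 with upper quartile scaling (-0.0099), where the sign also turned. The 6 libraries share replicate numbers, but the deviations of libraries with the same number had correlations of -0.03, -0.0046 and 0.09. Those with other numbers ran from -0.08 to 0.08. No pairing by number was seen, but 3 libraries per group cannot show that it was absent. With the replicate block 518 genes changed by 2-fold, and among the members and the pathway lists TEAD3 (adjusted p of 0.051), STK4 (0.059) and STK24 (0.051) lost their call and CRB3 gained one (0.030). The median log2 fold change of all genes was 0.01, and -0.02 with either other scaling. ANKRD1, with 9 to 45 fragments, is the member whose size is limited by depth.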

Other observations

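Markers of other cell types were looked up beside the members. Endothelial and immune markers were near 0 in every library, with summed levels of at most 0.0801 and 0.180 FPKM. Of 9 mesenchymal markers, COL1A1, PDGFRB and ACTA2 were tested, and the list summed to 5.04 to 5.83 FPKM in DMSO and 5.88 to 6.28 FPKM in PD. ACTA2, an actin of contractile cells, had 0.512 ± 0.0761 FPKM in DMSO and 1.05 ± 0.147 FPKM in PD (SD, n = 3 each) and was higher by limma (adjusted p = 0.0068), but its exons overlap other genes on both strands. COL1A1 (3.46 and 3.45 FPKM, adjusted p = 1) and PDGFRB (0.898 and 1.08 FPKM, adjusted p = 0.23) did not pass limma's test. DCN (0.484 and 0.398 FPKM) and THY1 (0.116 and 0.0514 FPKM) were under the FPKM minimum, and THY1 rested on only 3 to 12 fragments. Their PD libraries all lay below their DMSO libraries, which held for 29.9% of all tested genes. Of 5 epithelial markers, KRT8 rose from 50.1 ± 2.04 to 68.9 ± 2.77 FPKM (log2 fold change 0.45), and KRT18, its partner in the keratin filament, had 46.5 ± 1.37 and 47.7 ± 0.709 FPKM and did not pass the test. Exons of KRT8 and KRT18 overlap on opposite strands, so that their fragments are uncertain. CDH1, the gene of E-cadherin, did not exceed 0.145 FPKM in any library. The part of these markers in the results above was not tested.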
